A study of Mus musculus with 4 samples.

Results

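Gata1 to Gata6 are the 6 genes of the mouse GATA family, and they were examined here for H3K27me3 peaks in erythro-myeloid progenitors (EMPs) of the yolk sac (YS). The members were fixed by gene symbol. Peaks were taken as belonging to a member when they overlapped its gene or lay within 20 kb of it, and rows that the authors' peak annotation named for a member were added. The 6 genes stand among 21951 protein-coding genes of the annotation, and their windows held 38 of 10223 peaks in the library from 500 EMPs and 15 of 15282 peaks in the library from 15000 EMPs.

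EMPs are early blood progenitors that arise from hemogenic endothelium of the YS before the definitive stem cells. The study sorted them from the E10.5 YS of C57BL/6 mice as KIT+ CD41+ CD16/32+ cells, to find genes that may be targets of the histone methyltransferase Ezh2. Every library carried the same genotype label, Ezh2fl/fl; Tie2-Cre+/+ with the words wild type, and was read as wild type, so no sample here was taken to lack Ezh2. The labels do not give the number of embryos behind a library. CUT&RUN, in which an antibody tethers a nuclease that releases the DNA around its target, was done for H3K27me3 and for an IgG isotype control at each cell number. This gave 4 groups with 1 library each. The libraries from 500 EMPs had 17 PCR cycles and reads of 76 bp, those from 15000 EMPs 16 cycles and 59 bp, and the instruments differed too. Cell number, amplification, read length, instrument and the peak threshold cannot be told apart, and no difference between the H3K27me3 libraries has a replicate check. In the study's listed peak-calling commands the input files of the cell numbers are exchanged. Whether the deposited lists are exchanged too is not known, and each list is called here by its label. Peaks of the IgG libraries were not analysed here.

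GATA factors are zinc finger proteins named after the core of the DNA motif that they bind. Gata1, Gata2 and Gata3 are known as the blood paralogs: Gata1 drives red cell, megakaryocyte and mast cell development, Gata2 acts in stem and progenitor cells, and Gata3 directs T cell fate. Gata4, Gata5 and Gata6 act in heart, gut and other organs of mesoderm and endoderm. H3K27me3, the trimethylation of lysine 27 on histone 3, is placed by Polycomb repressive complex PRC2, whose catalytic subunit is Ezh2, and often lies in broad domains over CpG-rich starts of developmental genes that a cell does not use.

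Because Polycomb domains tend to form at CpG-rich DNA, the promoters of the members are shown with their CG dinucleotides in capitals and the rest in lower case. Each runs from 250 bases before to 50 bases after a start in RefSeq, on build GRCm38.p6, which is mm10. Entries matched 4 of the 6 members, with 5 windows, and Gata4 and Gata6 had none. The Gata1 window is chrX:7967861-7968160 on the - strand. For Gata2 the distal window is chr6:88193641-88193940 and the proximal window chr6:88198414-88198713, both on the + strand. The Gata3 window is chr2:9878551-9878850 and the Gata5 window chr2:180334630-180334929, both on the - strand.
Gata1: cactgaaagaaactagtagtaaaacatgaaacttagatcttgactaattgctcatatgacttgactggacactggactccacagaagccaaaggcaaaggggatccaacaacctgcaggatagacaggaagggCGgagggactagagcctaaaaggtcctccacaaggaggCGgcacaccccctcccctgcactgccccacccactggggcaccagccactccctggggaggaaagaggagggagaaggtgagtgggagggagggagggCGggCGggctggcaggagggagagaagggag
Gata2 distal: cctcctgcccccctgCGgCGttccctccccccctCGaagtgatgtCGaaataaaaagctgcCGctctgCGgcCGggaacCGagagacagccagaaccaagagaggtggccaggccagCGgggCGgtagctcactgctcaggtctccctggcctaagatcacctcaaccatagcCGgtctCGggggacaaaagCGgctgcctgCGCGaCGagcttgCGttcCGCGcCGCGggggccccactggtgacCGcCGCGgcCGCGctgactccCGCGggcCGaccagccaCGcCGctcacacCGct
Gata2 proximal: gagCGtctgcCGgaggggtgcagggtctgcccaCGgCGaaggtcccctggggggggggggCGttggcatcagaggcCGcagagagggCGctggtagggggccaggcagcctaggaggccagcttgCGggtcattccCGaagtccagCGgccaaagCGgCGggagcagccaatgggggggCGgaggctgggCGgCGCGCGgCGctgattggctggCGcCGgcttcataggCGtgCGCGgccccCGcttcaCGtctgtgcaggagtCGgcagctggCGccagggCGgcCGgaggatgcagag
Gata3: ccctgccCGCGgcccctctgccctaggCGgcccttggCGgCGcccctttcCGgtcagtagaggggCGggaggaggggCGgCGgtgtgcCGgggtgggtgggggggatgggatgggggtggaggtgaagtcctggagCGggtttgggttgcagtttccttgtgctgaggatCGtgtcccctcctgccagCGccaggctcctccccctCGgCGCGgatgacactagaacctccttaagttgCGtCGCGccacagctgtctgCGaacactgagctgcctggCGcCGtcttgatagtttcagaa
Gata5: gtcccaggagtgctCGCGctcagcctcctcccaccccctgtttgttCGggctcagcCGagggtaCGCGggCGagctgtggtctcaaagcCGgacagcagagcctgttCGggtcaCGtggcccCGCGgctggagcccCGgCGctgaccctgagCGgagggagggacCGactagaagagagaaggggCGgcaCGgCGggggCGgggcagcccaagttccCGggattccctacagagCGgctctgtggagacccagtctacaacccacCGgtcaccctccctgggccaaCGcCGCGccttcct

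The only H3K27me3 peak at Gata2 lay between its starts, and its most CpG-dense 300 bases, chosen on this density, are shown for that reason. They are chr6:88196668-88196967 on the + strand, wholly within the first intron, with CG again in capitals.
Gata2 peak: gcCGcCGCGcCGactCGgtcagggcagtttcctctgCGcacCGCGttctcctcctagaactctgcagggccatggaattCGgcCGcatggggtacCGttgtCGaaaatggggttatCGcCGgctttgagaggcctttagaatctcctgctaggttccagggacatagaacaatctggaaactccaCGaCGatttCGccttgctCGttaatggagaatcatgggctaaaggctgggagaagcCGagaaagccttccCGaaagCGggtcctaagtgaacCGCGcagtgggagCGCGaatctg

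Gata1 had 4 CG dinucleotides in its 300-base window, against a median of 7 over 32851 RefSeq promoters. The other windows were CpG-rich, with 32 and 29 at the distal and proximal Gata2 starts, 22 at Gata3 and 26 at Gata5. More CG dinucleotides than in these 4 windows were found in 8.56%, 11.7%, 21.5% and 15.5% of all promoters, respectively. The Gata3 window lies at an inner start of the gene, and its outer start, which peaks covered in both libraries, has no window here. The Gata5 window alone was covered, although both Gata2 windows held more CG dinucleotides. The Gata5 window was covered over all 300 bases with 15000 EMPs and over 196 bases with 500 EMPs. The Gata2 distal, Gata2 proximal and Gata3 windows were uncovered in both libraries, although the nearest 15000-EMP peak began only 618, 1217 and 369 bp away. The Gata1 window lay 39406 bp from a peak. The letters GATAA, a common form of the GATA motif, were searched on both strands, as were AGATAA and TGATAA, which contain it. Other forms, such as GATAG, and the bare GATA core were not searched. None of the 5 promoter windows held a match to the letters searched, whereas 25.4% of all promoters held GATAA, 11.2% AGATAA and 9.05% TGATAA. The whole Gata2 peak held 4 matches of GATAA, of which 1 was AGATAA and 1 TGATAA, and 1 of the 4 lay in the 300 bases shown.

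With 500 EMPs, 4 of the 6 members had a peak in the gene or within 20 kb, namely Gata3, Gata4, Gata5 and Gata6. The same was true of 18.5% of all protein-coding genes. With 15000 EMPs, Gata2 joined them and 5 of 6 members had a peak, against 30.1% of all genes. Gata1 had none in either library. The same 4 and 5 members had a peak within 3 kb of the outermost annotated start, where 9.92% and 17.0% of all genes had one. The outermost start itself was covered at Gata3, Gata4 and Gata5 in both libraries, 3 of 6 members, compared with 1.4% of all genes with 500 EMPs and 8.62% with 15000 EMPs. Shares over 6 genes are coarse, and they are given as a description with no test.

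**Figure D1:**
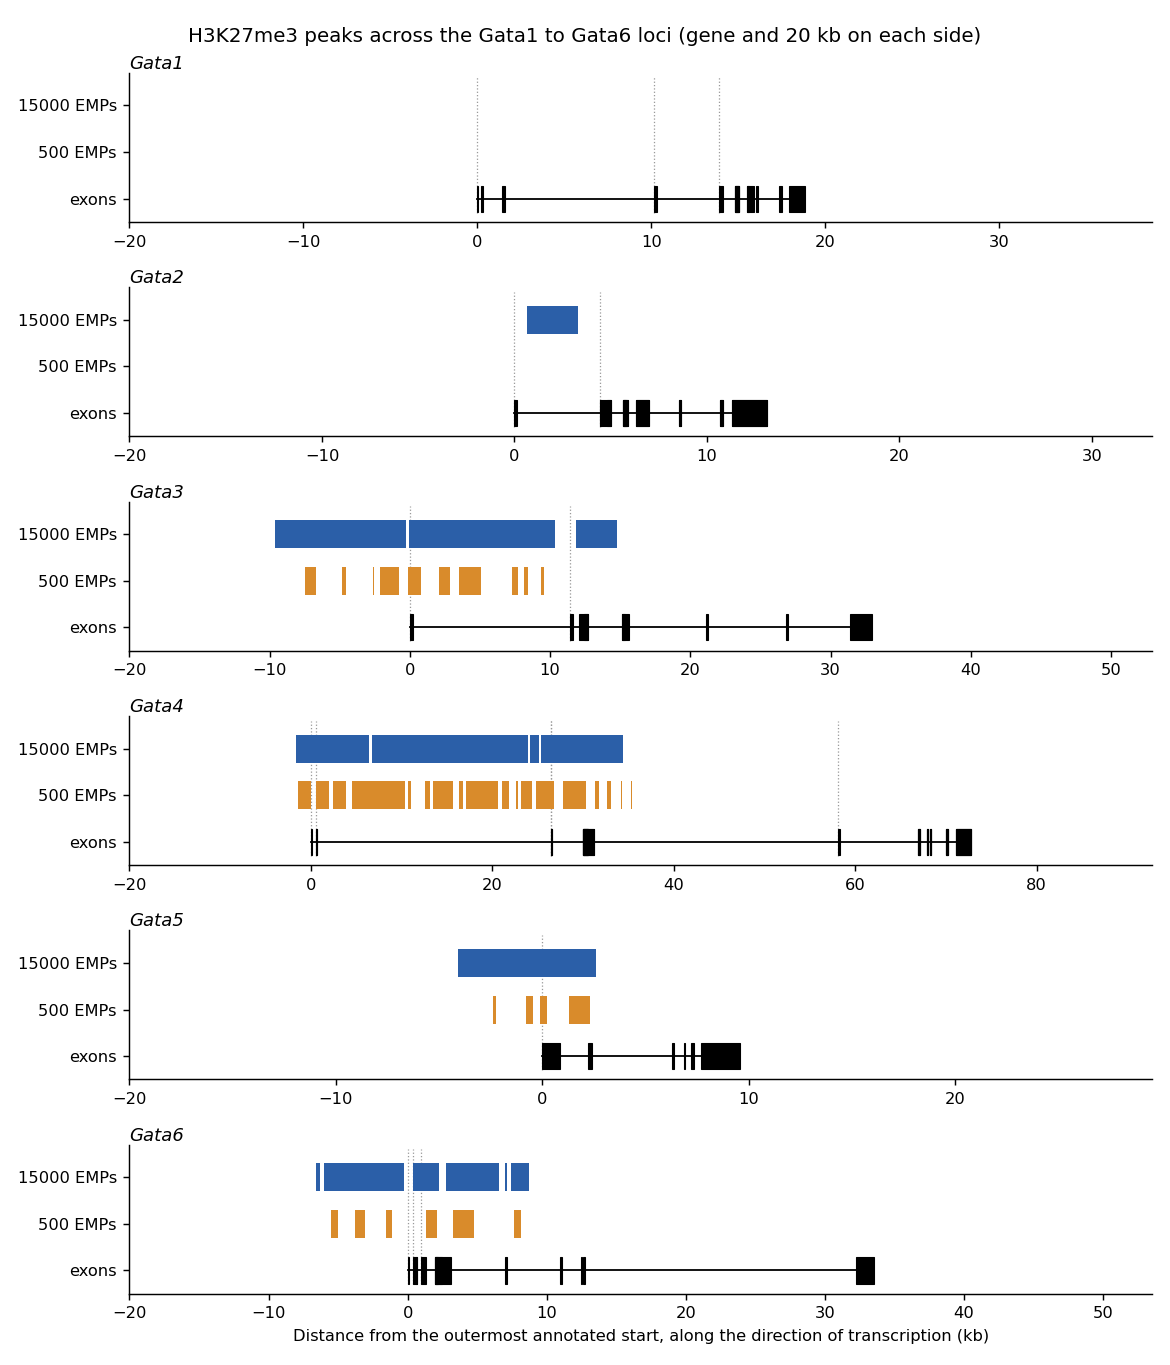
H3K27me3 peaks at each Gata gene, drawn to scale in kb from the outermost annotated start in the direction of transcription, with peaks of the 15000-EMP library in blue, peaks of the 500-EMP library in orange, exons of protein-coding transcripts in black and annotated starts as dotted lines. Gata1 carries no peak, Gata2 carries 1 between its starts with 15000 EMPs alone, and at Gata3 to Gata6 the peaks gather over the 5′ part of the gene and the DNA before it.

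Gata1 (chrX:7959260-7978071, - strand), the master regulator of red cells, was free of peaks over its whole window of 58812 bp. The nearest peak lay 32435 bp from the gene with 500 EMPs and 30805 bp away with 15000 EMPs. Both were on the same side, at chrX:7926120-7926825 and chrX:7924192-7928455. Between them and Gata1 lie Hdac6, a deacetylase gene, and the pseudogene Psmb6-ps, and neither was covered at any base. The Gata1 locus was also the poorest in CpG of the 3 blood paralogs, with 1.26 CG dinucleotides per 100 bp over the window and 1.8 within 500 bp of the outermost start. The median over all genes around the start was 4.1. Low CpG content was not particular to Gata1 in the family, however. The windows of Gata5 and Gata6, which had peaks, held 1.29 and 1.3 per 100 bp. Around the outermost start of Gata4, which was covered, there were 1.2.

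Gata2 (chr6:88193891-88207032, + strand), needed for the emergence and upkeep of blood progenitors, had no peak with 500 EMPs, where the nearest lay 609126 bp from the gene. With 15000 EMPs it had 1 peak of 2640 bp, chr6:88194558-88197197. This peak lay entirely in the first intron of the transcript that begins at the distal start. It began 667 bp after the distal start and ended 1137 bp before the proximal start of the gene annotation, chr6:88198334. That position lies upstream of the RefSeq proximal window shown above, and no Gata2 start was covered. Within 3 kb of the distal start the peak covered 2334 bp, or 38.9% of that stretch. More was covered at 9.73% of all genes. In the same list 2638 peaks were wider. The peak held 3.98 CG dinucleotides per 100 bp, the highest density in the covered part of any member's window, against 1.85 in the rest of the Gata2 window. The 500 bp on each side of the distal start had a higher density, 8.79 per 100 bp, and the distal start itself lay outside the peak. The neighbour Dnajb8, a chaperone gene downstream, had 2014 bp covered with 15000 EMPs, all of it beyond the 20 kb window.

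Gata3 (chr2:9857078-9890034, - strand), the T cell regulator, was the blood paralog with H3K27me3 in both libraries. With 500 EMPs there were 10 peaks that covered 6757 bp, and with 15000 EMPs 3 peaks that covered 22625 bp. The 3 peaks were 2924 bp (chr2:9875259-9878182), 10378 bp (chr2:9879688-9890065) and 9323 bp (chr2:9890303-9899625) wide. Together they spanned 24367 bp, from the intron after the third exon to DNA upstream of the gene, and covered 92.9% of that span. The part upstream of the outermost start was 9354 bp long, or 41.3% of the covered length. Only 166 peaks of the list were wider than the middle one. Around the outermost start the mark was nearly continuous with 15000 EMPs, where 5764 bp or 96.1% of the 3 kb on each side was covered. With 500 EMPs it was broken into 4 peaks that covered 3194 bp or 53.2%. More was covered at 0.774% and 0.715% of all genes.

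The inner start of Gata3 lay in the widest gap between these 3 peaks. This gap of 1505 bp (chr2:9878183-9879687) held 4.65 CG dinucleotides per 100 bp, more than any of the 3 peaks, which held 3.59, 3.11 and 1.67. The inner start was 418 bp from the nearest 15000-EMP peak and 1860 bp from the nearest 500-EMP peak. At Gata3, then, the outer start was covered and the inner start was not. The short genes 4930412O13Rik and 9230102O04Rik, which lie inside the first intron of Gata3, were covered over 100% of their length with 15000 EMPs and over 27.2% and 41.1% with 500 EMPs. The antisense transcript Gm13256 over the inner start was covered by 57.4% with 15000 EMPs and not at all with 500 EMPs.

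Gata4 (chr14:63198922-63271692, - strand), a cardiac and endodermal regulator, had the longest covered length of the family in both libraries, in the longest window, of 112771 bp. With 15000 EMPs its 4 peaks covered 35195 bp and with 500 EMPs its 18 peaks covered 24981 bp. Only 0.292% and 0.187% of all protein-coding genes had more in their windows. The 15000-EMP peaks were 9054 bp (chr14:63237276-63246329), 943 bp (chr14:63246578-63247520), 17193 bp (chr14:63247780-63264972) and 8005 bp (chr14:63265284-63273288) wide. Their gaps measured 248 to 311 bp, so the domain was 97.7% covered over 36013 bp. The widest of these peaks was exceeded by 32 of the 15282 peaks. With 500 EMPs the same stretch was broken into pieces of 137 to 5833 bp that covered 67.8% of 36850 bp, and the widest piece was exceeded by 15 of the 10223 peaks. Of the 18 pieces 3 had the smallest width in that list.

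Most of the Gata4 mark lay in introns, 91.2% of the covered length with 15000 EMPs and 91.9% with 500 EMPs. It reached only 1596 bp and 1435 bp upstream of the outermost start. Relative to the outermost start, the upstream share with 15000 EMPs was thus 4.53% at Gata4 and 41.3% at Gata3. Relative to an inner start of each gene it was 77.3% at Gata4 and 87.1% at Gata3, so the contrast depends on the start taken. The domain covered 4 of the 5 distinct starts of Gata4 in both libraries. Around the covered outer start there were 1.2 CG dinucleotides per 100 bp and around both covered inner starts there were 6.29. The uncovered start, deep in the gene, lay 23669 bp from the nearest 15000-EMP peak. The mark stopped 38354 bp before the 3′ end of the gene. Farther upstream the annotation named 3 more 15000-EMP peaks for Gata4, at 64803, 65658 and 71155 bp, of 171, 2107 and 294 bp. The neighbours Fdft1 and Neil2 beyond the 3′ end were uncovered.

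Gata5 (chr2:180325133-180334699, - strand), active in endocardium and gut epithelium, is the shortest of the 6 genes at 9567 bp. With 15000 EMPs it had a single peak of 6711 bp, chr2:180332079-180338789, which ran over the start. With 500 EMPs 4 peaks of 995, 368, 346 and 148 bp covered 1857 bp, all of them inside the 15000-EMP peak. Of the 6711 bp, 4090 bp or 60.9% lay upstream of the gene, the largest such share among the members in that library. Coverage of the 3 kb on each side of the start was 93.7% with 15000 EMPs and 30.9% with 500 EMPs, and 1.29% and 2.07% of all genes had more. The antisense gene Gata5os, which starts inside Gata5 and runs out across its promoter, was covered over 75.3% of its length with 15000 EMPs and 17.7% with 500 EMPs. Peaks carry no strand, so the mark cannot be assigned to Gata5 or to Gata5os. A 500-EMP peak of 212 bp, 24068 bp upstream, was also named for Gata5.

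Gata6 (chr18:11052064-11085635, + strand), which acts in primitive endoderm, lung and heart, had 6 peaks in each library. They covered 4461 bp with 500 EMPs and 13225 bp with 15000 EMPs. The 15000-EMP peaks ranged from 186 to 5730 bp and filled 86.4% of a span of 15301 bp, while the 500-EMP peaks ranged from 444 to 1547 bp and filled 32.6% of 13697 bp. The upstream part was 45.5% of the covered length with 15000 EMPs. The outermost start was uncovered in both libraries, which set Gata6 apart from Gata3, Gata4 and Gata5. With 15000 EMPs it fell in a gap of 649 bp, 251 bp from the nearest peak. The other starts, 406 and 980 bp further in, were covered. With 500 EMPs a gap of 2444 bp held all 3 starts. CpG-dense DNA also fell in gaps here. A gap of 473 bp in an exon, chr18:11054343-11054815, held 12.9 CG dinucleotides per 100 bp, whereas the peaks on its sides held 6.22 and 1.68.

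The last exon had 0 covered bases in every member and both libraries. This was common. Of protein-coding genes with 2 or more merged exons and a peak in the gene body, 82.7% had an uncovered last exon with 500 EMPs and 80.3% with 15000 EMPs. Gata1 in both libraries and Gata2 with 500 EMPs had no peak and fall outside this comparison. Merged exons of protein-coding transcripts were touched by 15000-EMP peaks at 2 of 7 for Gata3, 4 of 10 for Gata4, 2 of 6 for Gata5 and 4 of 9 for Gata6. With 500 EMPs the numbers were 1, 4, 2 and 1. The peak nearest the 3′ end of the gene ended 18181 bp before it at Gata3, 6946 bp at Gata5 and 24863 bp at Gata6 with 15000 EMPs.

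**Figure D2:**
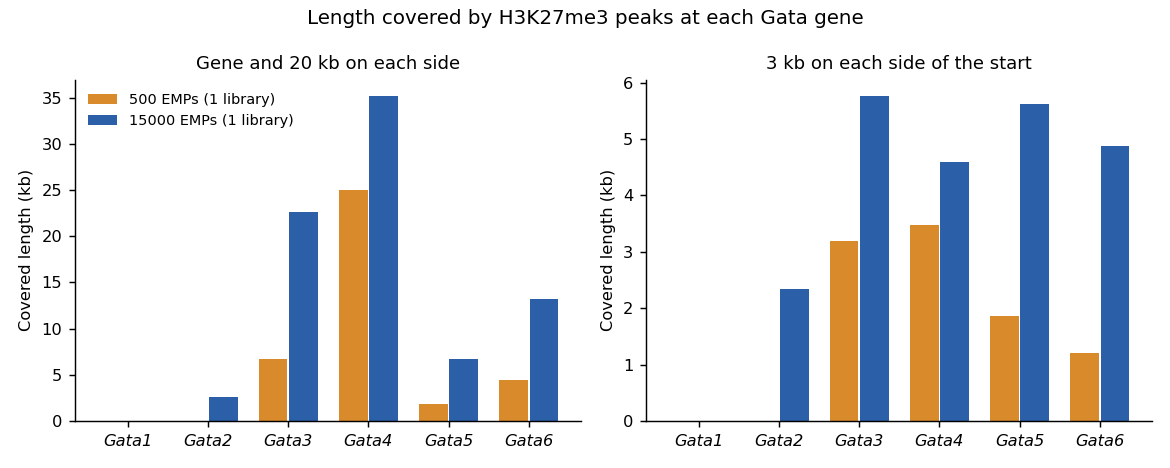
Length covered by H3K27me3 peaks in kb at each Gata gene, in the gene with 20 kb on each side (left) and in 3 kb on each side of the outermost start (right), with 1 library per bar and hence no error bars. Bars are at 0 for Gata1 in both libraries and for Gata2 with 500 EMPs, and Gata4 has the tallest bars on the left, up to 35.2 kb with 15000 EMPs.

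Blood and non-blood paralogs were then set side by side. Among the blood paralogs, 1 of 3 had a peak with 500 EMPs and 2 of 3 with 15000 EMPs, while 3 of 3 non-blood paralogs had one in both libraries. With 15000 EMPs the sets thus differed by 1 gene, and the share of all genes with a peak was 18.5% with 500 EMPs and 30.1% with 15000 EMPs. Summed over the windows, peaks covered 6757 bp at the blood and 31299 bp at the non-blood paralogs with 500 EMPs. With 15000 EMPs the sums were 25265 and 55131 bp. The sets overlapped, however, because Gata3 had more covered length than Gata5 and Gata6 in both libraries. The median gene had 0 bp among the blood and 4461 bp among the non-blood paralogs with 500 EMPs, and 2640 and 13225 bp with 15000 EMPs. Much of the non-blood sum was Gata4. The mean per gene was 2252 bp for blood and 10433 bp for non-blood paralogs with 500 EMPs, and 8422 and 18377 bp with 15000 EMPs. Without Gata4, an alternative chosen after the data had been seen, the non-blood mean was 3159 bp with 500 EMPs and 9968 bp with 15000 EMPs, so the difference shrank to 907 and 1546 bp and kept its direction. Without Gata3 the blood mean was 0 and 1320 bp. The order of covered length in the windows was the same in both libraries: Gata4, Gata3, Gata6, Gata5, and then Gata2 and Gata1. Windows grow with gene length, from 49567 bp at Gata5 to 112771 bp at Gata4. As a share of the window the order was the same, with 22.2%, 9.26%, 6.06% and 3.75% covered with 500 EMPs and 31.2% at Gata4, 31.0% at Gata3 and 13.5% at Gata5 with 15000 EMPs, where Gata4 and Gata3 were level and Gata6 lay between Gata3 and Gata5. With 1 library per cell number there is no spread to say which neighbours in this order differ.

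The order near the start was another. Within 3 kb of the outermost start Gata4 led with 500 EMPs at 3478 bp, ahead of Gata3 at 3194 bp, Gata5 at 1857 bp and Gata6 at 1205 bp. With 15000 EMPs Gata3 led at 5764 bp, followed by Gata5 at 5621 bp, Gata6 at 4879 bp and Gata4 at 4597 bp. Gata4 therefore held the most mark in its window and, with 15000 EMPs, the least at the outermost start among the 4 genes marked in both libraries. This order depends on the start taken. Within 3 kb of an inner start, Gata4 had 5494 bp and Gata3 4496 bp with 15000 EMPs, and 4525 and 223 bp with 500 EMPs. Among all genes that had any peak within 3 kb, the median covered length was 789 bp with 500 EMPs and 2743 bp with 15000 EMPs. By the outermost start, the same 4 genes lay above both medians, and Gata2 with 2334 bp lay below the second.

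**Figure D3:**
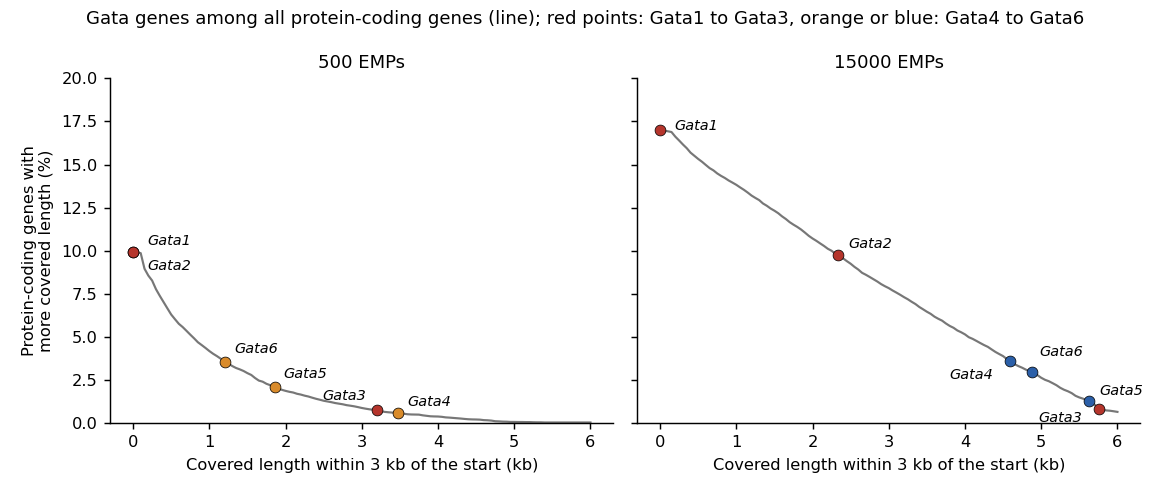
Percentage of protein-coding genes with more covered length within 3 kb of the outermost start (vertical axis) against that covered length in kb (horizontal axis) for each library, with all genes as the line and the Gata genes as points. Gata3 to Gata6 lie below 4% in both libraries, while Gata2 with 15000 EMPs lies at 9.73%.

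The libraries were next set against each other at the members. Of the 38 peaks with 500 EMPs, 37 (97.4%, 95% Wilson interval 86.5 to 99.5%) shared 1 bp or more with a 15000-EMP peak, compared with 91.2% of all 500-EMP peaks. The exception was a peak of 137 bp in Gata4, chr14:63236278-63236414. Of the 15 peaks with 15000 EMPs, 11 (73.3%, interval 48.0 to 89.1%) shared 1 bp or more with a 500-EMP peak, compared with 32.2% of all 15000-EMP peaks. When a single peak of the other library had to share at least 50% of both peaks, both shares were 0%, since short pieces lay in wide peaks. Width bears on this share. All 7 member peaks over 5 kb had a partner, as had 99.0% of all 875 such peaks, and 4 of 8 narrower member peaks had one, against 28.1% of all narrower peaks. The 4 without a partner were the Gata2 peak, the 2924-bp peak of Gata3 and the peaks of 293 and 186 bp at Gata6. These intervals cover counting error only, and neighbouring peaks are not independent. By length, 97.3% of the 500-EMP coverage was shared and 46.1% of the 15000-EMP coverage. Over all 15000-EMP peaks the shared length was 23.1%, and over those wider than 5 kb it was 43.5%, against 50.9% for the 7 wide member peaks. It differed between members, at 68.3% for Gata4, 33.7% for Gata6, 29.5% for Gata3, 27.7% for Gata5 and 0 for Gata2.

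Inside the windows, CpG density was higher in the 15000-EMP peaks than outside them at each of the 5 marked members. It was 2.58 against 1.25 CG dinucleotides per 100 bp at Gata3, 2.14 against 1.13 at Gata4, 2.88 against 1.04 at Gata5 and 2.81 against 0.974 at Gata6. The same direction held with 500 EMPs, where the densities in peaks were 2.38, 1.94, 2.48 and 2.6. The median member peak held 2.86 per 100 bp with 15000 EMPs, against 1.62 over all peaks of that list, and 1.58 against 1.49 with 500 EMPs. The part that the CpG content of the gene starts has in this difference was not tested.

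**Figure D4:**
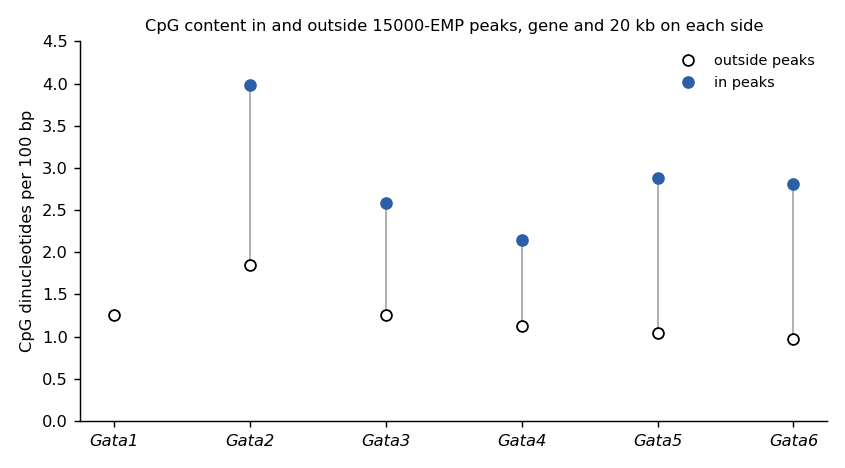
CG dinucleotides per 100 bp (vertical axis, from 0) inside (filled) and outside (open) the 15000-EMP peaks in the window of each Gata gene, taken from the reference genome. The filled point is above the open point at all 5 genes that had a peak, and Gata1 has an open point alone, at 1.26.

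The names given to peaks decided how visible some members were. The annotation named 30 peaks for the 6 genes with 500 EMPs and 13 with 15000 EMPs. All peaks that touched Gata6 were named for its antisense neighbour Gata6os instead, 3 with 500 EMPs and 4 with 15000 EMPs, so that only upstream peaks bore the name Gata6. Of the 6 peaks with 500 EMPs that touched Gata3, 5 were named only for 4930412O13Rik or 9230102O04Rik. At Gata4 every peak in the window was named for Gata4. The counts of members used here do not depend on these names.

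Genes that work with GATA factors were then counted by list. The lists were chosen with earlier results of these data known, so their shares are a description and no independent support. Among 20 partners of Gata4, Gata5 and Gata6 in heart and endoderm, 13 (65%) had a peak within 3 kb of the start with 500 EMPs and 14 (70%) with 15000 EMPs, against the 9.92% and 17.0% of all genes given above. Among 36 genes of the blood lists, 1 (2.78%) and 6 (16.7%) had one, and the latter share was close to that of all genes. The 6 became 2 within 1 kb, where 15.2% of all genes had a peak, and 3 with peaks of at least 500 bp, against 15.1% of all genes. The median covered length within 3 kb was 4703.5 bp for cardiac and 3468 bp for endodermal partners with 15000 EMPs, and the median over all genes was 0. Hhex, a homeobox gene with roles in blood and endoderm, stood in both pools and had no peak.

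Of the 10 cardiac and mesodermal partners, 6 had a peak with 500 EMPs and 7 with 15000 EMPs. The heart regulators Nkx2-5, Tbx5 and Tbx20 were covered over all 6001 bp around the start with 15000 EMPs, and Hand1 over 5721 bp. Zfpm2, which encodes the cofactor FOG2, was the gene added with 15000 EMPs, whereas Zfpm1, which encodes the blood cofactor FOG1, had no peak within 3 kb in either library. Of the 10 endodermal partners, 7 had a peak in both libraries, although with 500 EMPs only 4 had one within 1 kb. Foxa2 and Sox17, regulators of early endoderm, were covered over 6001 bp with 15000 EMPs, Onecut1 over 5748 bp and Foxa1 over 5453 bp.

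The blood lists were counted against the same 9.92% and 17.0% of all genes. Of 10 blood partners, which include Tal1, Lmo2, Ldb1 and Runx1, none had a peak with 500 EMPs and only Fli1 had one with 15000 EMPs, of 454 bp within 3 kb. Of 10 erythroid and megakaryocytic targets of Gata1, none and then only Epor, the erythropoietin receptor gene, had one (246 bp). Neither the Fli1 nor the Epor peak lay within 1 kb of the start. In the gene or within 20 kb, the rule used for the members, 4 of these 10 targets had a peak with 500 EMPs and 3 with 15000 EMPs, against 18.5% and 30.1% of all genes. None of 8 progenitor and mast cell genes bound by Gata2 had a peak in either library. Of 8 T cell genes on the list for Gata3, 1 (12.5%) had a peak with 500 EMPs, close to the share of all genes, and 4 (50%) with 15000 EMPs. The 4 became 2 within 1 kb of the start, and also 2 when peaks under 500 bp were left out. The T lineage regulator Bcl11b was covered over 1877 and 5157 bp, Tcf7 over 3755 bp with 15000 EMPs alone, and Ets1 and Cd3e over 282 and 171 bp. Of 9 other genes with a GATA-type zinc finger, among them Trps1, Gatad2a and Mta1, none had a peak within 3 kb in either library.

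**Figure D5:**
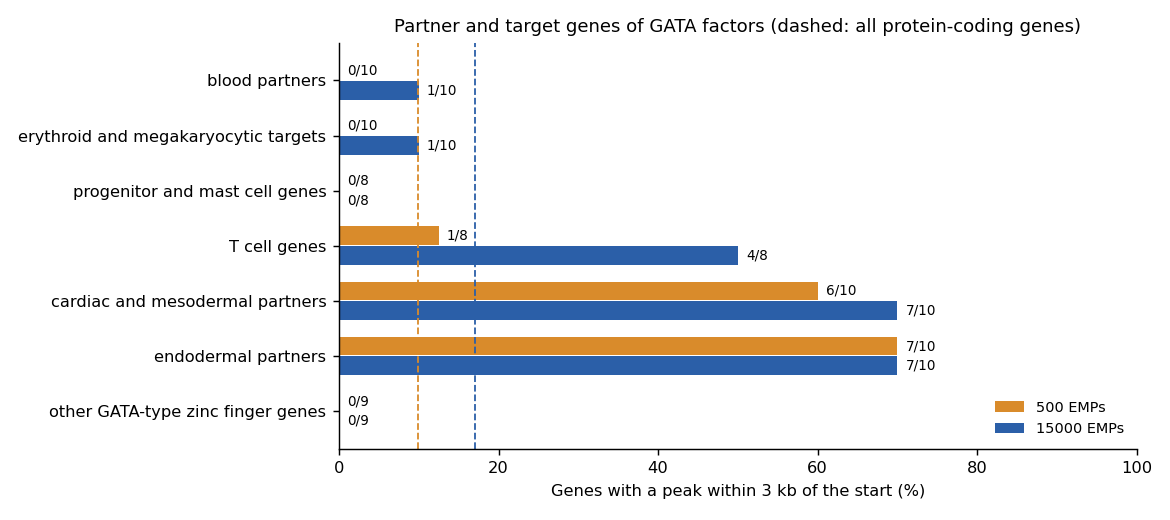
Percentage of genes in each list with a peak within 3 kb of the outermost start, per library, with the number of genes beside each bar and the share of all protein-coding genes as dashed lines (9.92% with 500 EMPs, 17.0% with 15000 EMPs). The cardiac and endodermal bars reach 60% to 70%, and the blood partner, erythroid and progenitor bars lie at 0 or 10%. The T cell bars, also of a blood list, lie at 12.5% with 500 EMPs and 50% with 15000 EMPs. The lists were chosen with earlier results of these data known.

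Genes that mark the sorted cells and other cells of the YS were counted in the same way, again against 9.92% and 17.0% of all genes. The sort on KIT, CD41 and CD16/32 would remove cells that lack these proteins. Lists of 3 or 4 genes are too short to read a count of 0 against these shares. None of the EMP markers Kit, Itga2b, Fcgr3 and Fcgr2b had a peak within 3 kb in either library, and none of the visceral endoderm markers Afp, Ttr, Apoa1 and Hnf4a did. Of 4 endothelial markers only Kdr had one, of 274 bp with 15000 EMPs. All 3 markers of mesothelium and mesenchyme, Pdgfra, Wt1 and Col1a1, had one in both libraries. Peak positions do not measure how many cells of each kind were present, and their part in the Gata peaks was not tested.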

How the data were processed

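H3K27me3 CUT&RUN of E10.5 YS EMPs gave 1 library from 500 and 1 from 15000 cells. The authors aligned reads to mm10 with Bowtie2 2.2.1 and called broad peaks with MACS2 2.1.2, and the submitters' processing notes also name SAMtools 1.9 and deepTools 3.5.1. The p-value threshold was 0.01 for 500 EMPs and 0.05 for 15000 EMPs. In the authors' listed commands, the entry for each cell number has the reads of the other as input, so whether each list came from the library it names is not settled, and each was used as labelled. The authors annotated peaks with ChIPpeakAnno, for which the methods give version 3.20.1 and the reporting form a later one. The deposited files give peak positions, gene names and distances in bp, with no score, height or read count, so a peak was present or absent. Depth is unknown from the files, although the study's reporting form gives the 500-EMP library fewer reads and a lower alignment rate. Broad mode joins nearby enriched stretches, so peak number and width depend on this joining too.

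Positions are 1-based on mm10. Peak ends were read from the peak lists, since the annotated tables gave them 1 bp higher. On 21 chromosomes, 0 peaks ran past the chromosome end of the reference. Genes, transcripts and exons came from GENCODE vM21, with all 21951 protein-coding genes as background, and promoter sequences from RefSeq (GRCm38.p6). Covered length is the number of bp under peaks in a window. Overlap meant at least 1 bp. No test was made, since each group had 1 library. Python 3.11.15, pandas 2.3.3, numpy 2.4.6, pysam 0.24.0 and matplotlib 3.10.9 were used, and the overlap functions were tested on simulated data. The members and gene lists were chosen with earlier results of these data known. Named were the 6 members, the genes that share their windows and at most the 4 genes per list with the longest covered length within 3 kb with 15000 EMPs; Zfpm1, Zfpm2, Kdr and the genes under the closing observations were named after their values were seen, and other genes show what a list holds. All 80 symbols of the lists matched. Alternatives were the window (10 kb, 50 kb or the gene alone), the distance to the start (1 kb or 5 kb, any annotated start, or the annotation's own distance), the peak width (at least 500 bp, or above the smallest width), joining of peaks within 1 kb or 3 kb, and an overlap of at least 50%. Means per gene without Gata4 or Gata3 were added after the data had been seen.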

Additional observations from a re-analysis of the deposited data

How the results depend on the processing

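Of 138 alternative values for 36 results, 116 stayed within 1.5 times of the reported value (for a share, within its interval), 22 moved and 0 reversed. A reversal could be scored only for the differences between non-blood and blood paralogs, and a 0 that stayed 0 was scored as unchanged. The members with a peak, 4 with 500 EMPs and 5 with 15000 EMPs, and the 13 and 14 marked partners of Gata4 to Gata6 stayed within 1.5 times under each alternative run. The counts still changed inside that limit. Within 50 kb, 5 members had a peak with 500 EMPs and all 6, Gata1 among them, with 15000 EMPs. The share of all genes within 50 kb was not counted. Within 1 kb of the start, 3 members and 9 partners had a peak with 500 EMPs, against 7.39% of all genes. The covered length around the 6 starts moved with the window and the joining of peaks. It was 9734 bp within 3 kb with 500 EMPs, 3328 bp within 1 kb, 15079 bp within 5 kb and 21130 bp with peaks within 3 kb joined, and with 15000 EMPs it went from 23195 to 7452 bp within 1 kb. The non-blood minus blood difference of 24542 bp with 500 EMPs became 38209 bp with peaks within 3 kb joined. That of 29866 bp with 15000 EMPs became 19744 bp within 50 kb. The difference of the means per gene went from 8181 to 907 bp with 500 EMPs and from 9955 to 1546 bp with 15000 EMPs without Gata4, and to 17057 bp with 15000 EMPs without Gata3. The share of 500-EMP peaks with a partner, 97.4%, became 0% when a single 15000-EMP peak had to share at least 50% of both peaks and 100% with peaks within 3 kb joined. The share of 15000-EMP peaks, 73.3%, became 0% when a single 500-EMP peak had to cover at least 50% of the peak, or of both peaks. These overlap limits compare short pieces with wide peaks. The 6 blood-list genes with a peak with 15000 EMPs became 2 within 1 kb and 3 with peaks of at least 500 bp. No paired analysis was possible because each group had 1 library. Peaks carry no height, and a gene with no peak may hold H3K27me3 below the threshold.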

Other observations

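Several list genes had peaks in the gene or within 20 kb, most of them with none within 3 kb of the start. Of the 10 blood partners, 3 had a peak in this window with 15000 EMPs and 0 with 500 EMPs, against 30.1% and 18.5% of all genes. With 15000 EMPs, Klf1, a red cell regulator, had 4 such peaks that covered 4880 bp. Slc4a1, which encodes the red cell anion exchanger, had 10 peaks that covered 4006 bp. Zfpm1 had 3 peaks that covered 1151 bp. None of Klf1, Slc4a1 and Zfpm1 had a peak in this window with 500 EMPs. With 500 EMPs, Epor, Alas2, Nfe2 and Pf4 each had 1 peak in it, over 284, 137, 283 and 137 bp. With 15000 EMPs, Epor, which also had a peak within 3 kb of the start, had 3 peaks over 2918 bp and Pf4 2 peaks over 684 bp, and Alas2 and Nfe2 had none. The EMP marker Fcgr3 had 7 peaks over 2443 bp with 500 EMPs and 5 peaks over 6212 bp with 15000 EMPs. Among the other genes with a GATA-type zinc finger, Gatad2a had 4 peaks over 1076 bp and 2 peaks over 2757 bp, and Mta1 had 1 peak over 683 bp and 5 peaks over 4368 bp, in that order of libraries. These genes were picked for naming after their values had been seen, and their windows also hold neighbouring genes.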
